A study of Mus musculus with 4 samples.

Results

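Cells that carry the early monocyte transcripts Chil3, Hp, Plac8 and Ifitm6 were examined in CD11b-selected cells of the mouse colon. A cell was taken when these 4 genes together gave at least 8 unique molecular identifiers (UMIs, each standing for 1 captured transcript) and Csf1r, the receptor for the macrophage growth factor CSF1, at least 1. Cells of neighbouring kinds were kept out by upper limits of 14 UMIs for C1qa, C1qb and C1qc together, 3 for Cd209a, Flt3, Klrd1 and Tnip3 together and 1 for Cd79a, and by a Retnla level under 1000 CPM (a gene's UMIs per 1000000 UMIs of the cell or of the summed cells). The rule found 819 of 13805 cells, or 5.93%. Of these, 679 also met 3 added limits and are called the myeloid members below: at least 5 UMIs of the myeloid adaptors Tyrobp and Fcer1g together, under 2000 CPM of stromal, endothelial, pericyte and epithelial markers, and under 20000 CPM of B lineage transcripts. The remaining 140 failed at least 1 of these limits and are described first.

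The series holds 4 droplet single-cell libraries of steady-state, untreated mice. They come from colon lamina propria or from colon solitary isolated lymphoid tissues (SILT, small lymphoid aggregates in the gut wall), each from wild-type (Csf2+/+) and from Csf2-/- mice, which lack the growth factor CSF2, also called GM-CSF. All 4 groups, controls included, carried the reporter alleles CX3CR1-GFP/+ and CCR2-RFP/+, which put a fluorescent protein into a copy of Cx3cr1 and of Ccr2. The design text names 5 mice, and how many entered each library, their age and their pooling are not given in the sources used here. With 1 library in each group there is no replicate and no test, and every interval below is an exact 95% interval that covers counting error only.

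Monocytes are made in the bone marrow and reach tissues through the blood. The classical kind, with high Ly6C and CCR2, enters the gut wall and over days loses Ly6C, gains MHC class II and becomes macrophages; the non-classical kind, with low Ly6C and high CX3CR1, patrols the vessel wall and depends on the transcription factor NR4A1. Chil3 (a chitinase-like lectin), Hp (haptoglobin, which binds free haemoglobin), Plac8 (a small cysteine-rich protein) and Ifitm6 (a member of the interferon-induced transmembrane family) are abundant in monocytes that have recently left the marrow. CSF2 acts through a receptor made of the alpha chain Csf2ra and the beta chain Csf2rb.

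The kept cells, those with at least 200 genes, at least 2000 UMIs and at most 10% mitochondrial UMIs, numbered 3876 in wild-type lamina propria, 1792 in Csf2-/- lamina propria, 6151 in wild-type SILT and 1986 in Csf2-/- SILT, with medians of 7409 to 11248 UMIs. Csf2 itself, the targeted gene, gave 2 UMIs over the kept cells of the wild-type lamina propria library, 23 over those of wild-type SILT, and 0 in either Csf2-/- library. The members had 0 in all 4 libraries. The wild-type libraries shared 19 cell barcodes with each other and every other pair 3 to 5, and no member's barcode occurred in another library. Xist, transcribed from the inactive X chromosome of females, was seen without Y-linked transcripts in 55 of 110 myeloid members from wild-type lamina propria, 80 of 136 from Csf2-/- lamina propria, 82 of 226 from wild-type SILT and 114 of 207 from Csf2-/- SILT. Y-linked transcripts without Xist were seen in 38, 25, 78 and 37. Each library thus held cells of both sexes, and the share with Xist alone was higher in the Csf2-/- library of each tissue. Of the 86 pairs of a named gene and a comparison past the 2-fold limit used below, 19 left their counting interval and 2 turned among Xist+ cells, and 32 left it and 1 turned among cells with Y-linked and no Xist UMIs. Those that turned were S100a8 and S100a9 between genotypes in lamina propria among Xist+ cells, and Ccl4 between genotypes in SILT among the others.

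The 4-gene sum admitted cells that were not monocytes. Of the 140 remaining cells, 52 were in wild-type lamina propria, 15 in Csf2-/- lamina propria, 60 in wild-type SILT and 13 in Csf2-/- SILT. In all, 111 had under 5 UMIs of Tyrobp and Fcer1g and 137 had at least 2000 CPM of stromal, endothelial, pericyte and epithelial markers, with 1 cell left out for its B lineage transcripts. Thus 29 of the 140 carried the adaptors, and 28 of these were over the stromal and epithelial limit. Plac8 alone made up 98.6%, 95.8%, 94.4% and 90.3% of their 4-gene sum, in the same order of libraries, against 70.8% to 78.2% in the myeloid members. Endothelial cells of the same libraries, chosen by 5 vessel genes with no Csf1r and no Ptprc, had a Plac8 UMI in 14.9% to 23.3% of cells after thinning every cell to 2000 UMIs, and in 27.1% to 46.2% without thinning, but a Chil3 UMI in at most 0.236% of thinned cells. The 140 remaining cells of the rule held 57.7% of all the rule's UMIs in wild-type SILT and 11.2% in Csf2-/- SILT. In wild-type and Csf2-/- lamina propria they held 42.4% and 18.6%. Gene comparisons are therefore given over the myeloid members, with the share of genes called over all cells of the rule beside them.

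**Figure D1:**
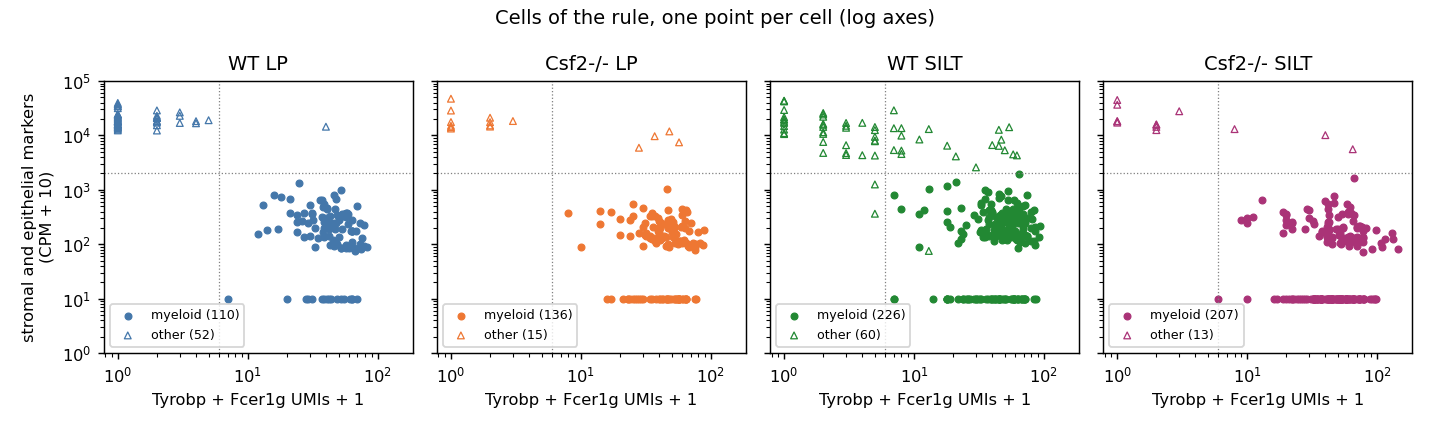
Each point is 1 cell of the rule in 1 of the 4 libraries, plotted by its Tyrobp and Fcer1g UMIs plus 1 (horizontal, log axis) and its stromal and epithelial marker level in CPM plus 10 (vertical, log axis); filled circles are the 679 myeloid members, open triangles the 140 others, and dotted lines the limits of 5 UMIs and 2000 CPM. The others lie mainly at the upper left, with few adaptor UMIs and high stromal or epithelial levels.

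Of general myeloid genes that no limit used, Lyz2, which encodes lysozyme, was detected in all 679 myeloid members, and Itgam, which encodes the CD11b used for selection, in 91.8%, 91.9%, 78.8% and 83.1% of cells from wild-type lamina propria, Csf2-/- lamina propria, wild-type SILT and Csf2-/- SILT. The progenitor genes Mpo, Elane, Ctsg, Ms4a3, Camp, Ltf and Ngp had 0 UMIs in all 4 libraries. So had Ly6g and Stfa2l1, 2 of the 13 listed neutrophil markers. The neutrophil list as a whole was not absent and summed to 592, 354, 149 and 592 CPM in the same order of libraries. That sum includes the S100a8 and S100a9 counts given below. The 12 genes of the granulocyte-monocyte progenitor list summed to 17.1 to 33.2 CPM. The summed endothelial list of 9 markers was at 75.5 to 146 CPM in the myeloid members against 795 to 2617 CPM over all cells of the rule, a gap that the limit on such markers sets. The word early in the name of these cells thus rests on the genes that the rule used.

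The 4 genes were not equally spread over the members. Plac8 was found in 107 of 110, 135 of 136, 224 of 226 and 207 of 207 myeloid members, and Ifitm6 in 83, 103, 179 and 163. Chil3, by contrast, was found in 49, 58, 83 and 86 cells and Hp in 57, 60, 118 and 109. In 22, 26, 49 and 36 cells the sum rested on Plac8, with at most 1 UMI of the other 3 genes together. The median sum was 30.5, 27, 25 and 27 UMIs. Cells with myeloid adaptors just inside the limit, with 8 or 9 UMIs, had Ly6c2 at 34.1, 201, 82.0 and 196 CPM in the same order of libraries. Those just outside, with 6 or 7, had 136, 203, 130 and 107 CPM. Each value rests on 6 to 22 cells, and Ly6c2 had no common direction across the limit.

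Start-site sequences were found for 3 of the 4 genes, Chil3, Ifitm6 and Plac8, in RefSeq (GRCm38.p6). They are shown because these genes choose the cells. Each run is the 150 bases before the annotated start, 5′ to 3′ on the gene's strand; capitals mark GAGGAA or its complement TTCCTC, the core bound by PU.1 (the myeloid factor encoded by Spi1), and the TATA box TATAAA. Plac8 has a second annotated start, which is not shown.
Chil3, chr3:106167565-106167714, minus strand: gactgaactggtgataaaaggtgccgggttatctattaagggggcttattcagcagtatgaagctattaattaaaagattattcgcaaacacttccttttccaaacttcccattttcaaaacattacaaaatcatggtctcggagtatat
Ifitm6, chr7:141016893-141017042, minus strand: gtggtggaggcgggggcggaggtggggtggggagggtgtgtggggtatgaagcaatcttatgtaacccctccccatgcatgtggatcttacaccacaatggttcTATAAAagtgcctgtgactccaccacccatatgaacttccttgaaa
Plac8, chr5:100572206-100572355, minus strand: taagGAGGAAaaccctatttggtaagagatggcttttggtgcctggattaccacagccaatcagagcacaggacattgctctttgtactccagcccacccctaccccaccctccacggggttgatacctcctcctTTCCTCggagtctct
The Plac8 window held GAGGAA once on each strand, and the Ifitm6 window TATAAA. Over all 32851 start-site windows of this length, 14.5% held GAGGAA on either strand and 7.57% TATAAA, and 5.46% held TTNNGCAA, a C/EBP core that was in none of the 3 windows shown; the window of the second Plac8 start held it once and GAGGAA 0 times. A match describes the letters and not a bound site.

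The myeloid members were set against 2 kinds of neighbours of the same library: 256 Ccr2+ cells that met every limit but had fewer than 8 UMIs of the 4 genes (marker-low cells), and 3194 Csf1r+ cells with at least 50 C1q UMIs (C1q-high macrophages). Since the 4 genes separate these groups, all these values are a description. Of 1221 genes at 100 CPM or more, 15 were at least 2-fold higher in the members than in the marker-low cells in all 4 libraries (1.23% of genes) and 13 at least 2-fold lower (1.06%). Apart from the 4 rule genes, the higher ones began with Ly6c2, the Ly6C antigen of classical monocytes, at 555, 687, 590 and 680 CPM against 44.8, 97.9, 77.8 and 63.2. Mgst1, a microsomal glutathione transferase, had 216, 170, 216 and 199 CPM against 17.2, 31.2, 27.9 and 52.2. Gsr, glutathione reductase, had 330, 307, 332 and 354 CPM against 24.1, 40.1, 91.8 and 168. Msrb1, a methionine sulfoxide reductase, had 600, 700, 652 and 865 CPM against 119, 225, 199 and 363. Ly6c2, Mgst1, Gsr and Msrb1 did not overlap between members and marker-low cells in any pair of libraries, and neither did the others of the 15. The 15 were picked for being higher in every library, and how many of the 1221 genes did not overlap was not counted. Cebpb, a transcription factor of the C/EBP family, stood at 1102, 1804, 1123 and 1803 CPM against 300, 507, 449 and 817. Ifitm3, Samsn1, Wfdc17, Itgal, Smpdl3a and Samhd1 completed the 15.

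The genes lower in the members included those of class II. H2-Ab1, the class II beta chain, had 1830, 3011, 2405 and 2596 CPM in members from wild-type lamina propria, Csf2-/- lamina propria, wild-type SILT and Csf2-/- SILT against 7064, 9038, 5998 and 7255 in marker-low cells. H2-Eb1, H2-Aa and the invariant chain Cd74 followed the same order. The mannose receptor Mrc1 had 62.4, 23.3, 27.4 and 24.3 CPM against 310, 165, 164 and 107, and Ms4a7, Pltp, Lgmn, Lmna and Tmem176a were also lower. Against the C1q-high macrophages, 94 of 1398 genes were at least 2-fold higher in all 4 libraries (6.72%) and 142 lower (10.2%). Besides the rule genes the former were led by Ly6c2, Mcemp1, Adgre4, Sirpb1c and Cebpb, and the latter by Chp2, Lyve1, Siglech, Fcna, Gas6 and Folr2. C1q-high cells of Csf2-/- SILT had more of every rule gene than those of the other libraries, for example Plac8 at 192 CPM against 33.4 to 65.9 and Chil3 at 12.7 against 2.36 to 4.12.

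**Figure D2:**
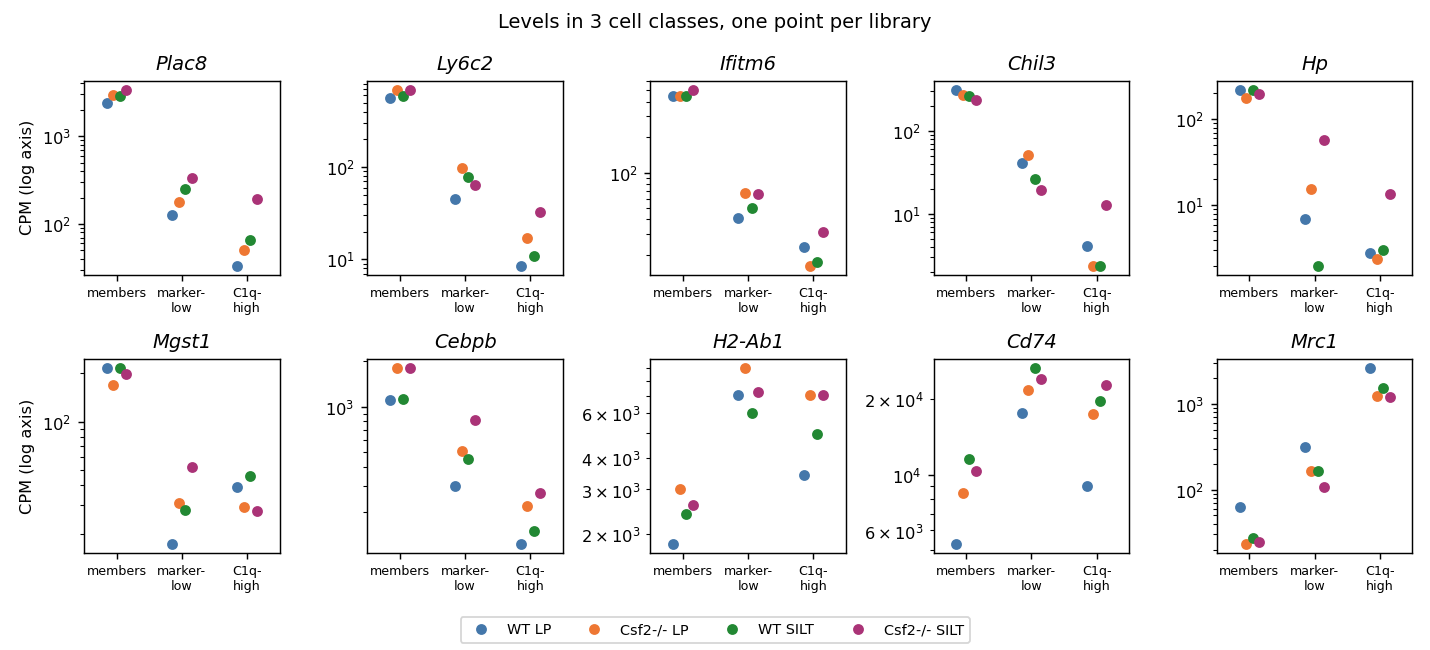
Pooled CPM (log axis) of 10 genes in the myeloid members, the marker-low cells and the C1q-high macrophages, with 1 point for each of the 4 libraries. For Plac8, Ly6c2, Ifitm6, Chil3, Hp, Mgst1 and Cebpb the 4 member points lie above all others; Mrc1 rises from members to marker-low cells to C1q-high macrophages.

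The members did not form a single state. Each cell was thinned to 2000 UMIs and called Ly6c2+ when it kept at least 1 Ly6c2 UMI and class II high when it kept at least 5 UMIs of H2-Aa, H2-Ab1 and H2-Eb1; neither measure was part of the rule. The Ly6c2+ share was 41.8%, 43.4%, 41.2% and 42.0% in wild-type lamina propria, Csf2-/- lamina propria, wild-type SILT and Csf2-/- SILT. The intervals together ran from 32.5% to 52.1%, so no difference between groups was detectable at this depth. Without thinning, 73.6%, 64.7%, 58.8% and 69.1% had a Ly6c2 UMI, and 1.42% to 3.97% of endothelial cells. The class II high share was 31.8% (interval 23.3% to 41.4%), 45.6% (37.0% to 54.3%), 43.4% (36.8% to 50.1%) and 46.4% (39.4% to 53.4%). It was lowest in wild-type lamina propria, though that interval overlapped the other 3. Only 3, 8, 12 and 19 cells kept 3 to 6 class II UMIs, close to the limit.

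Ly6c2+ class II low cells, 36, 35, 64 and 53 in number, held the highest level of some classical monocyte genes. Of 18 listed, 7 were highest in this class in all 4 libraries, F13a1, Fn1 and Lyz2 among them. The share was 1.07% over the 10791 genes with a UMI in the members of every library. That base had no floor of CPM and was not matched to the list by level, so the 2 shares are not on equal terms. Others of the list peaked elsewhere: Ccr2 was highest in Ly6c2+ class II high cells in all 4 libraries and Ifi27l2a there in 3. Itga4 was highest in Ly6c2- class II low cells in all 4, and Clec4e and Msrb1 there in 3. Outside the list, Ms4a4c was highest in Ly6c2+ class II high cells in 3. Vcan, of the list, peaked in the Ly6c2+ class II low cells in 2. Fn1, fibronectin, was at 680 to 1643 CPM here and at 440 to 982 CPM in Ly6c2- class II low cells. Among the rule genes, whose levels the choice of cells conditions, Hp was at 409, 280, 419 and 371 CPM here against 221 to 267 in Ly6c2- class II low cells, and Chil3 at 512, 379, 475 and 414 against 285 to 376. F13a1, coagulation factor XIII A, was at 872, 481, 384 and 481 CPM.

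Ly6c2- class II low cells, 39, 39, 64 and 58 in number, held the highest level of most non-classical monocyte genes. The call was made on thinned cells, and unthinned they still held Ly6c2, at 127 to 266 CPM against 1242 to 1772 in Ly6c2+ class II low cells. Ranges of these 2 classes overlapped for Ccr2, at 422 to 642 against 454 to 793 CPM, and for Cx3cr1, at 299 to 373 against 231 to 365 CPM. Of 16 listed, 13 were highest in this class in all 4 libraries, Ace, Adgre4, Cd36, Eno3, Gngt2, Itgal, Spn and Treml4 among them. Cx3cr1, Pou2f2 and Nr4a1 were highest here in 3. The share was 1.91% over the same 10791 genes, again not matched by level. Outside the list, Ear2 was highest here in all 4 libraries, and Fcgr4 was highest here in 2 and in Ly6c2+ class II high cells in 2. Ace, angiotensin-converting enzyme, was at 337, 343, 237 and 311 CPM, against 37.2 to 129 in Ly6c2+ class II low cells. Treml4, a receptor of non-classical monocytes, was at 124, 162, 104 and 172 CPM against 22.0 to 52.2. Ear2, an eosinophil-associated ribonuclease, was at 169, 214, 153 and 232 CPM against 20.7 to 99.3, and Eno3 at 121 to 173 CPM against 8.27 to 45.6. Endothelial cells also carried Ace, at 326 to 385 CPM, whereas Treml4 was there at 0.147 to 0.750 CPM. Nr4a1, on which this lineage depends, was at 938, 829, 543 and 578 CPM in the Ly6c2- class II low cells and at 578, 566, 308 and 615 CPM in the Ly6c2+ class II low cells. It was the higher of these 2 classes in 3 of 4 libraries. The rule thus took in class II low cells with high F13a1 and Fn1 and class II low cells with high Ace, Treml4 and Ear2.

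Class II high cells carried the rule genes at lower levels. Over both Ly6c2 classes, Hp was at 17.4 to 119 CPM in class II high cells and at 221 to 419 CPM in class II low cells. Ifitm6 was at 80.2 to 351 against 517 to 956 CPM, and Chil3 at 53.5 to 178 against 285 to 512 CPM. The choice of cells by these genes conditions their levels, so the values are a description. Of the 4 rule genes Plac8 differed least between the classes, with 2550 to 4183 CPM in the class II low cells and 1514 to 3673 CPM in the class II high ones. Ciita, the master regulator of class II transcription, which the class limit did not use, was at 159 to 345 CPM in class II high cells and at 8.06 to 49.5 CPM in class II low cells. Cd74 was at 11693 to 21858 against 810 to 2054 CPM. Apoe, a lipoprotein of tissue macrophages, was at 5232 to 8550 CPM in Ly6c2+ class II high cells against 1914 to 3333 in Ly6c2+ class II low cells. In Ly6c2- cells its ranges overlapped, at 2507 to 9457 CPM in class II high and 2558 to 4141 CPM in class II low cells. Ccr2, the chemokine receptor through which monocytes leave the marrow, was highest in the Ly6c2+ class II high cells in all 4 libraries, at 1016, 982, 846 and 658 CPM. Of the cells whose 4-gene sum rested on Plac8, 90.9%, 96.2%, 77.6% and 88.9% were class II high, or 20 of 22, 25 of 26, 38 of 49 and 32 of 36, against 15 of 88, 37 of 110, 60 of 177 and 64 of 171 of the others. Dividing cells were rare: at least 2 UMIs of G2/M genes were kept by 2, 0, 2 and 1 cells after thinning. Unthinned, 4.55%, 2.21%, 2.65% and 1.45% of cells had them.

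**Figure D3:**
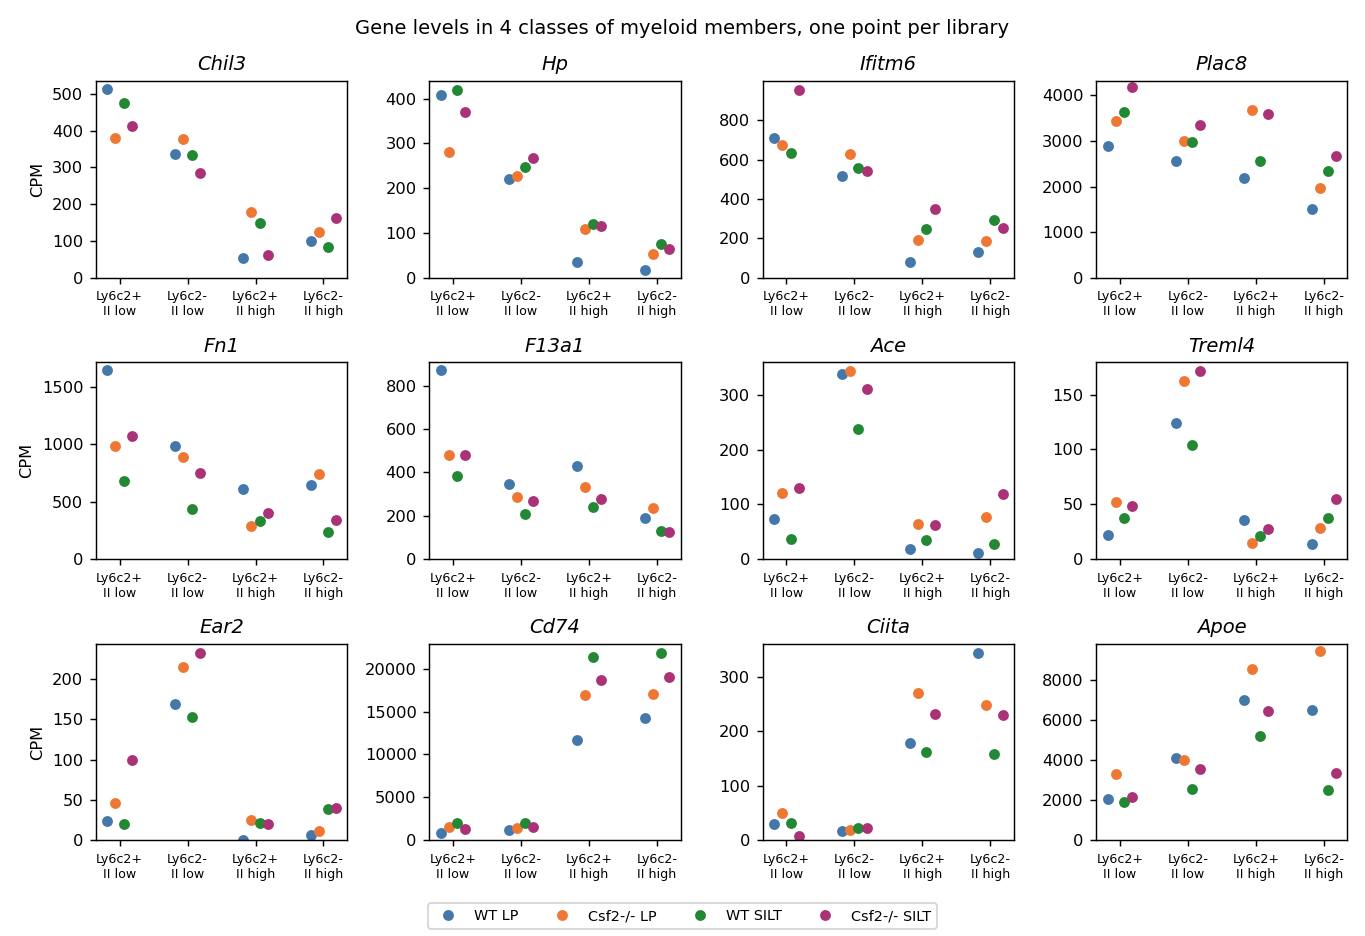
Pooled CPM of 12 genes in the 4 classes of myeloid members, cut by Ly6c2 and class II after thinning, with 1 point for each library. Chil3, Hp and Ifitm6 are higher in both class II low classes, Fn1 and F13a1 peak in the Ly6c2+ class II low cells, Ace, Treml4 and Ear2 in the Ly6c2- class II low cells, and Cd74 and Ciita are high in both class II high classes; Apoe overlaps between classes.

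The members made up a larger part of the Csf2-/- libraries in both tissues. Myeloid members were 2.84% of kept cells in wild-type lamina propria (interval 2.34% to 3.41%) and 7.59% in Csf2-/- lamina propria (6.41% to 8.91%). In SILT they were 3.67% (3.22% to 4.17%) and 10.4% (9.11% to 11.9%). The intervals of wild type and Csf2-/- did not overlap in either tissue. Over all cells of the rule the shares were 4.18%, 8.43%, 4.65% and 11.1%. A further base was the cells with a Csf1r UMI and at least 5 UMIs of the myeloid adaptors. Of these, the myeloid members were 5.83% and 14.9% in lamina propria and 9.80% and 18.9% in SILT, wild type first. This base had no limit on stromal, epithelial or B lineage transcripts. It thus held 29 cells of the rule that were not myeloid members. A share among selected cells can differ because the members or the other cells differ in number, and the 2 cannot be told apart in these data. The Csf2-/- share was above the wild-type share of the same tissue at each of the 6 other limits tried on the rule.

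**Figure D4:**
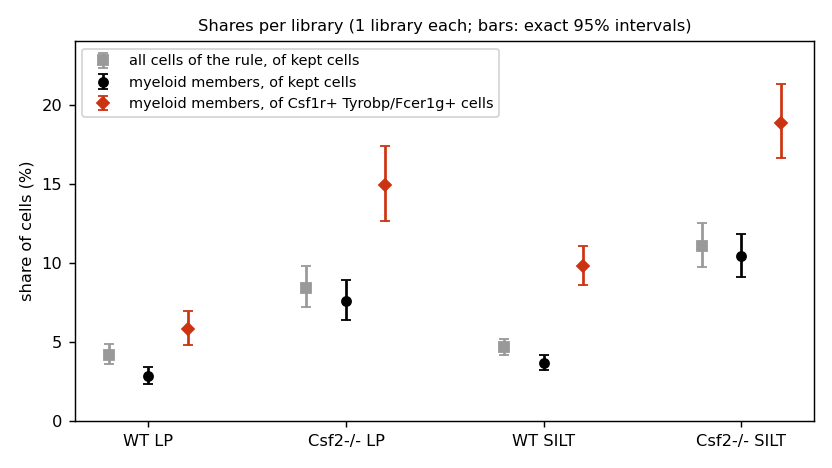
Share of cells in each of the 4 libraries (1 library a group) with exact 95% intervals, for all cells of the rule and for myeloid members among kept cells, and for myeloid members among Csf1r+ cells with myeloid adaptors. In each tissue the Csf2-/- share lies above the wild-type share by all 3 counts.

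Gene levels of the myeloid members were then compared between genotypes, a gene counting as different when its pooled CPM differed at least 2-fold with a mean of at least 50 CPM and at least 30 UMIs. In SILT, 37 of 2775 genes were higher in Csf2-/- members (1.33%) and 9 lower (0.324%), a total of 1.66%. Over all cells of the rule, with the other cells included, 11.1% were higher and 8.86% lower, a total of 19.9%. The levels of the rule genes, which chose the cells in both genotypes, are a description: Plac8 was 1.16-fold higher in Csf2-/- SILT, Ifitm6 1.14-fold, and Chil3 and Hp were both at 0.89 of the wild-type level. Within the cells of 1 sex Chil3 and Hp went both ways: they were at 1.44 and 1.17 times the wild-type level among Xist+ cells and at 0.38 and 0.54 among cells with Y-linked and no Xist UMIs. The genes with the largest differences that were spread over many cells were Itgb5, an integrin chain, at 74.9 against 25.7 CPM (2.92-fold, interval 2.05 to 4.22), Nabp1, a single-strand DNA binding protein, at 87.0 against 30.3 CPM (2.87-fold, 2.08 to 4.02), and Ppp1r9b, a phosphatase scaffold, at 119 against 47.2 CPM (2.51-fold). Cxcr4, the receptor that holds monocytes in the marrow, was at 223 against 104 CPM (2.15-fold, 1.79 to 2.58), in 127 and 103 cells. Within the cells with Y-linked and no Xist UMIs the Cxcr4 fold was 1.03, and within Xist+ cells 3.18.

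Several non-classical monocyte genes sat near the 2-fold line in SILT, where wild-type members had the lowest level of the 4 libraries for Ace, Itgal, Spn and Pou2f2. Of 16 listed, 13 were measured, 1 was at least 2-fold higher and 12 were above the wild-type level, with a median log2 difference of 0.51 against 0.04 over all genes. Ace had 161 against 80.5 CPM, Itgal 338 against 171, Spn 108 against 55.4 and Pou2f2 484 against 250, which makes ratios of 1.94 and upward, with Ace alone past the 2-fold line. In lamina propria, Csf2-/- against wild type, Ace had 157 against 134 CPM, Itgal 319 against 316, Spn 87.5 against 111 and Pou2f2 552 against 406. There 12 of the 16 were measured, 0 passed the limit and 9 were above wild type. Their median log2 difference was 0.23, against -0.04 over all genes. In SILT Ace, Itgal, Spn and Pou2f2 were also higher in the cells of either sex taken alone, by 1.21-fold to 3.74-fold. The share of thinned cells with a UMI was likewise higher for Itgal, at 48.8% against 26.1%, and for Spn, at 21.3% against 11.1%. Unthinned, the shares of these 2 genes were 78.7% against 59.7% and 33.8% against 24.3%. At most 0.248% of thinned endothelial cells of SILT had either transcript. The share of Ly6c2- class II low cells was 28.0% against 28.3%. Ace was at 385 and 327 CPM in the endothelial cells of the same libraries and Itgal at 2.75 and 0.367 CPM.

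Genes seen in few cells made up much of the top of the SILT list. S100a9 had 305 UMIs in Csf2-/- SILT, 195 of them in 1 cell and 12 cells in all, and 0 in wild type; S100a8 had 321, with 224 in 1 cell, against 5. Ccl4 had 279 UMIs with 161 in 1 cell against 86, and its fold of 3.39 was 1.73 without the highest cell of each library and 0.35 in the cells with Y-linked UMIs. Cxcl10 had 149 UMIs in 12 cells against 49 in 14. The genes lower in Csf2-/- SILT included Il22ra2, the soluble IL-22 binding protein, at 22.5 against 134 CPM, with 37 UMIs in 5 cells against 230 in 14 cells. The receptor Ccr1, at 87.6 against 172 CPM, was 1.96-fold lower and so just short of the limit. The histone genes Hist1h1b (9.74 against 92.1 CPM), Hist1h1e (77.9 against 294) and Hist1h4d (29.8 against 70.6) and the ribosomal RNA-related AY036118 (237 against 959) were lower, and Hist1h1e and AY036118 were also lower in endothelial cells, at 43.5 against 153 and 217 against 509 CPM.

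In lamina propria, 4 of 2975 genes were higher in Csf2-/- myeloid members (0.134%) and 25 lower (0.84%), a total of 0.975%. Over all cells of the rule 0.972% were higher and 7.69% lower, a total of 8.66%. The proteoglycan gene Vcan, a classical monocyte gene, was at 35.3 against 76.1 CPM, 2.16-fold lower (1.49 to 3.17). A single Csf2-/- cell held 22 of its 44 UMIs. Leaving out the top cell of both libraries gave a 3.63-fold lower level. Of 18 listed classical genes, all measured, 2 were at least 2-fold lower, 0 higher and 6 above the wild-type level, with a median log2 difference of -0.14 against -0.04 over all genes. Slfn1, a schlafen family gene, was at 65.8 against 180 CPM (2.73-fold lower), Pstpip2 at 29.7 against 77.8 (2.62-fold) and Ccr1 at 89.1 against 198 (2.23-fold). Ly6c2 (687 against 555 CPM) and Plac8 (2948 against 2381) were higher in the pooled cells, and lower among cells with Y-linked and no Xist UMIs, at 0.75 and 0.74 of the wild-type level. Within Xist+ cells Vcan was at 0.80 of the wild-type level, short of the 2-fold limit.

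Some genes higher in Csf2-/- lamina propria fell short of the limit. H2-Eb1 was at 2384 against 1345 CPM (1.77-fold, 1.67 to 1.88), Lgmn, the lysosomal protease legumain, at 303 against 163 (1.86-fold, 1.56 to 2.22), Pltp at 165 against 86.4 (1.90-fold, 1.49 to 2.44) and P2rx4, an ATP-gated channel, at 138 against 71.0 (1.94-fold, 1.49 to 2.56). Of 10 class II presentation genes 8 were measured, 0 passed the 2-fold limit and 7 were above wild type. Their median log2 difference was 0.45, against -0.04 over all genes. Of 22 resident macrophage genes 9 were measured, 0 passed the limit in either direction and 6 were above wild type, with a median of 0.18. The macrophage receptor Mrc1, below the floor of 50 CPM, was at 23.3 against 62.4 CPM. C1q-high macrophages of the same libraries had H2-Eb1 at 6934 against 3320 CPM. Pltp was at 702 against 709 CPM in endothelial cells. The genes past the limit included Hes1, a Notch target, at 185 against 91.5 CPM (2.02-fold) and Lyz1, at 108 against 33.4 CPM. Lyz1 shares sequence with Lyz2, which stood at 23396 and 21006 CPM, and is uncertain. Hes1 was at 416 against 357 CPM in endothelial cells and 1.18-fold higher among members with Y-linked and no Xist UMIs. Gm42031 was also past it, and is named here after its value was seen. Lars2 was lower at 166 against 548 CPM and differed likewise in endothelial cells, at 239 against 699 CPM.

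The 2 genotype comparisons use different libraries. Of 2601 genes measured in both, 0 were at least 2-fold higher in both tissues, and 4 were lower in both: Hist1h4d, Hist1h1e, Gm42418 and AY036118. These were 44.4% of the genes lower in SILT and 16.0% of those lower in lamina propria. Below that limit, Ccr1 was lower in Csf2-/- members of both tissues, as given above, and in C1q-high macrophages, at 184 against 391 CPM in lamina propria and 225 against 381 in SILT. Cebpb was higher in Csf2-/- members in both, at 1804 against 1102 CPM and 1803 against 1123 CPM, and in C1q-high macrophages, at 221 against 124 and 267 against 152 CPM. Endothelial cells of the Csf2-/- libraries had more Cebpb too, at 95.2 against 35.5 CPM in lamina propria and 64.2 against 43.3 CPM in SILT. Ifi47, an interferon-induced GTPase, was lower in both, at 55.4 against 103 CPM and 52.3 against 101 CPM. Its endothelial levels were 71.8 against 72.7 and 87.7 against 102 CPM. Ccr1 and Ifi47 were lower, in each tissue, among Xist+ cells and among cells with Y-linked UMIs alike, by 1.46-fold to 3.86-fold.

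**Figure D5:**
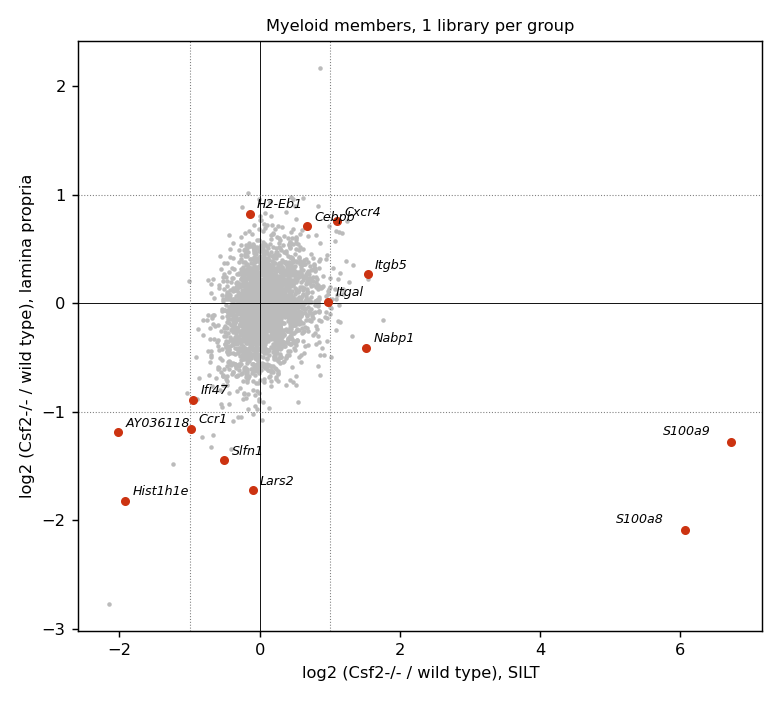
Each grey point is 1 of 2601 genes measured in both tissues, placed by its log2 ratio of Csf2-/- over wild type in SILT (horizontal) and in lamina propria (vertical) over the myeloid members; dotted lines mark 2-fold and red points are genes named in the text. Most genes lie within 2-fold on both axes, and S100a8 and S100a9 lie far to the lower right, where 1 or a few cells hold most of their UMIs.

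The receptor through which CSF2 acts was expressed by the members of every library. Csf2ra stood at 242, 293, 182 and 229 CPM in wild-type lamina propria, Csf2-/- lamina propria, wild-type SILT and Csf2-/- SILT, and Csf2rb at 201, 139, 138 and 165 CPM. Csf2ra was 1.21-fold and 1.25-fold higher in Csf2-/- members, and Csf2rb 0.69 of wild type in lamina propria and 1.20-fold in SILT, so the beta chain had no common direction. In C1q-high macrophages Csf2ra was at 102 to 156 CPM, below every member group. In the marker-low cells it was at 227, 296, 168 and 294 CPM, which overlaps the members, and after thinning 22 of 56, 28 of 57, 26 of 80 and 25 of 63 marker-low cells had a Csf2ra UMI against 33 of 110, 53 of 136, 65 of 226 and 80 of 207 members, with intervals that overlapped in each library. Unthinned the shares were 85.7%, 84.2%, 55.0% and 68.3% against 81.8%, 87.5%, 70.8% and 74.9%, and 0.496% to 1.51% of thinned endothelial cells had one. Of 20 receptor and response genes listed, 8 were measured in SILT and 6 in lamina propria, and 0 passed the 2-fold limit between genotypes in either tissue. Csf1r was at 694, 693, 438 and 610 CPM, Ccr2 at 802, 681, 564 and 539 CPM and Cx3cr1 at 349, 424, 226 and 320 CPM. The reporter alleles are shared by all groups, and whether they alter the Ccr2 and Cx3cr1 counts was not tested.

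Between the tissues, more genes passed the limit in wild-type than in Csf2-/- members. In wild type 35 of 2883 genes were higher in SILT (1.21%) and 113 lower (3.92%), a total of 5.13% against 27.4% over all cells of the rule (9.22% higher, 18.2% lower), with a median log2 difference over all genes of -0.14. With TMM scaling, which sets that median at 0.05, 76 were higher and 45 lower. Genes lower in SILT relative to this shift included the long RNA Neat1 (307 against 1236 CPM), Ccl9 (157 against 501.9), Nfkbiz (135 against 375), the orphan nuclear receptor Nr4a2 (27.4 against 103), fibronectin Fn1 (423 against 1095) and Zeb2 (507 against 1146). Neat1 and Lars2 also differed in endothelial cells, at 80.6 against 169 and 223 against 699 CPM, and Ccl9 and Zeb2 in C1q-high macrophages, at 154 against 443 and 598 against 1272 CPM. Of 19 measured transcription factors 5 were at least 2-fold lower in SILT and 0 higher, and of 17 dissociation and heat-shock genes 3 were lower, Fosb, Hsp90aa1 and Egr1. The summed dissociation list was at 20417 CPM in wild-type lamina propria and 16520 CPM in wild-type SILT, and its part in the difference was not tested.

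Higher in wild-type SILT were Cd74 (11505 against 5306 CPM, 2.17-fold), Ass1, argininosuccinate synthase (104 against 33.4, 3.11-fold), the LY6 family genes Ly6i (90.4 against 34.2, 2.64-fold) and Ly6a (88.0 against 30.8, 2.86-fold), and Gstp1 (128 against 53.0, 2.42-fold). Cd74 was also higher in endothelial cells of wild-type SILT, at 313 against 149 CPM. In C1q-high macrophages the summed class II presentation list was at 40791 against 22197 CPM. Ly6a was abundant in endothelial cells, at 4657 and 3130 CPM, and over all cells of the rule it was lower in SILT. Il22ra2 had 230 UMIs in 14 cells in SILT and 0 in lamina propria, at least 52.3-fold higher against a limit of 3 counts. The immunoglobulin transcripts Igkc (1264 against 281 CPM) and Jchain (205 against 61.6) were higher in the members and in endothelial cells too, at 1030 against 112 CPM for Igkc. The part of free RNA in this was not tested. All 16 nuclear respiratory chain genes were measured, 13 of them above lamina propria and 0 past the limit. Their median log2 difference was 0.47, against -0.14 over all genes, and the endothelial median was 0.39.

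In Csf2-/- mice, 14 of 2894 genes were higher in SILT (0.484%) and 6 lower (0.207%), a total of 0.691%, and over all cells of the rule 0.485% higher and 0.744% lower. The BCL2 family survival genes Bcl2a1b (170 against 31.3 CPM, 5.42-fold, 3.87 to 7.79) and Bcl2a1d (102 against 32.9, 3.09-fold, 2.18 to 4.46) were higher in SILT, the former in 60 of 207 against 21 of 136 cells. They are near-identical copies, so reads may be split between them. In wild type Bcl2a1b was 2.21-fold higher in SILT. Ass1 was 3.23-fold higher (80.3 against 24.9 CPM), near its wild-type ratio, though among class II low Csf2-/- members the ratio was 1.15. Cxcl16, a membrane-bound chemokine and scavenger receptor, was at 131 against 48.2 CPM (2.72-fold), Fabp5 at 128 against 49.8 (2.57-fold) and Cxcl10 at 90.7 against 12.8, in 12 and 8 cells. Lower in SILT were Rab7b (31.7 against 82.7 CPM, 2.61-fold), Lpl (42.0 against 87.5, 2.08-fold), which had a ratio of 1.05 among class II low cells, and Lyz1, which is uncertain.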

How the data were processed

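The deposited matrices hold raw UMI counts of 32285 mouse features per cell barcode, made by the authors with Cell Ranger from 10x 3′ libraries; the submitters' processing notes name version 2.1.1 and mm10, and the file headers version 6.0.0. Which version made the counts is not settled by these sources, and the annotation is not given in the sources used here. UMIs were summed over members per library and divided by their total (CPM). The 4 libraries held 2158 to 8041 barcodes and 19225644 to 67656927 UMIs, and the myeloid members 1169468 to 1715041 UMIs. Intervals are exact (Clopper-Pearson, Poisson or conditional binomial). Members, gene lists (442 genes, 2 of them not in the features) and limits were chosen with earlier results of these data known; the myeloid condition was added after seeing the data. Named genes are, per comparison, the 8 highest and 8 lowest past the limits, up to 4 of each list, genes past 2-fold in both tissues and the genes that define the cells; against other cells, 15 highest and 10 lowest. Doublets were called with Scrublet in scanpy 1.11.5 and kept in the main values; 0 myeloid members were called. TMM factors came from edgeR 4.0.16. The calling of genes was tested on simulated counts. Some genes that met these rules are not reported here.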

Additional observations from a re-analysis of the deposited data

Results flagged for a closer look

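S100a8 and S100a9, the calprotectin genes of neutrophils and classical monocytes, moved in opposite directions between genotypes in the 2 tissues over the myeloid members. In SILT the log2 ratio of Csf2-/- over wild type was 6.07 for S100a8 and, against a limit of 3 counts for the wild-type library at 0, 6.73 for S100a9. In lamina propria it was -2.09 for S100a8 and -1.28 for S100a9. The difference between tissues was not tested. In wild-type lamina propria a single cell held 175 of 176 S100a8 UMIs and 190 of 191 S100a9 UMIs. In Csf2-/- SILT a single cell held 224 of 321 and 195 of 305. Without the highest cell of each library, the lamina propria ratios were 2.91 for S100a8 and 2.72 for S100a9, in the same direction as in SILT, at 4.66 and 5.26. Of the 13 listed neutrophil markers, Ly6g and Stfa2l1 were at 0 UMIs in all 4 libraries. The whole list, S100a8 and S100a9 included, summed to 149 to 592 CPM.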

How the results depend on the processing

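With 1 library a group there is no error from mice or libraries, and the number of UMIs and cells limits each value. No paired analysis was possible because each group has 1 library. Shares over all cells of the rule moved with the limits: to 5.37% in wild-type lamina propria with a 4-gene sum of at least 6, to 2.94%, 7.09%, 3.74% and 9.62% (wild-type and Csf2-/- lamina propria, wild-type and Csf2-/- SILT) with at least 12, to 1.63%, 4.91%, 2.24% and 7.40% when chosen after thinning, to 4.06% in wild-type SILT with C1q of at most 5, to 4.92% in wild-type lamina propria with at most 5% mitochondrial UMIs, and to 2.84% and 3.67% in wild-type lamina propria and SILT for the myeloid members. Counts of genes past 2-fold over all cells of the rule were 598 (genotype, SILT), 294 (genotype, lamina propria), 912 (tissue, wild type) and 38 (tissue, Csf2-/-). In that order they were 46, 29, 148 and 20 over the myeloid members, 1253, 669, 1897 and 120 with a floor of 20 CPM, and 310, 122, 463 and 14 with 100 CPM. The first 3 were 83, 62 and 282 after thinning. Further moves were 86 (tissue, Csf2-/-, sum of at least 6), 191 (genotype, lamina propria, sum of at least 12), 241 and 544 (genotype, SILT, and tissue, wild type, C1q of at most 5), 109, 399 and 25 (genotype, SILT, and both tissue counts, mean of CPM per cell), 19 (tissue, Csf2-/-, without the highest cell) and 1022 and 96 (genotype, SILT, and tissue, Csf2-/-, Xist+ cells). The cause was not tested.

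For the 86 pairs of a named gene and a comparison past the limit, 18 log2 values reversed over all alternatives. Without reversing, 39 left the counting interval of the myeloid value over all cells of the rule, 32 in cells with Y-linked and no Xist UMIs, 25 among class II low members, 21 after thinning, 19 in Xist+ cells, 11 without the highest cell, 8 with TMM, 6 with a sum of at least 6, 6 by the mean of CPM per cell, 4 with a sum of at least 12, 2 with C1q of at most 5, 2 with at most 5% mitochondrial UMIs, and 0 without doublets or without mitochondrial and ribosomal genes. Among class II low members the reversed values were -1.28 for Cxcl10 (genotype, SILT), -0.41 for Lyz1 (tissue, wild type), and -2.80, -3.35 and 0.064 for S100a8, S100a9 and Lpl (tissue, Csf2-/-). Ly6a (tissue, wild type) was -0.66 over all cells of the rule, and Ccl4 (genotype, SILT) -1.52 in cells with Y-linked and no Xist UMIs. S100a8 and S100a9 (genotype, lamina propria) were 0.72 and 1.72 in Xist+ cells, 5.37 and 6.26 with a sum of at least 12, and 2.91 and 2.72 without the highest cell. S100a8 (tissue, wild type) was 1.81 with a sum of at least 12 and 1.45 without the highest cell, and S100a9 (tissue, Csf2-/-) -0.67 by the mean of CPM per cell. Lyz1 was -0.13 (tissue, wild type, C1q of at most 5) and -0.49 (genotype, lamina propria, thinned). The myeloid condition, the class II low cells and the cells with Y-linked UMIs were chosen after seeing the data.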
